A study of Mus musculus with 13 samples.

Results

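The insulin-like growth factor (IGF) axis of the mouse mammary gland was followed through 10 genes: the ligands Igf1 and Igf2, the receptors Igf1r and Igf2r, and the binding proteins Igfbp2 to Igfbp7. The genes were taken by symbol from a table of 15213 genes, and all 10 were listed in it and passed the filter on low values. IGF1 and IGF2 are secreted growth factors that signal through the tyrosine kinase receptor IGF1R, whereas IGF2R binds IGF2 and carries it to the lysosome without signaling through a kinase. The binding proteins hold the ligands in tissue and serum, and proteases such as PAPP-A cut them and free the ligand. In the mammary gland IGF1 acts downstream of growth hormone on ductal growth, and IGFBP5 is known for its rise in the involuting gland.

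RNA sequencing was performed on 10 mammary tumors of 6 females of the genotype MtTA Teto-TSG101wt and on mammary glands of 3 wild-type FVB females. In these double transgenic mice the tetracycline-controlled transactivator is driven by the MMTV promoter in luminal epithelial cells and, without doxycycline, switches on a TetO-Tsg101 transgene. Tumor 1 came from mouse 50074, tumors 2 and 3 from mouse 51067, tumor 4 from mouse 51071, tumors 5 and 6 from mouse 51356, tumor 7 from mouse 51360 and tumors 8, 9 and 10 from mouse 51386, so the tumors are not 10 independent animals. Each gland came from a mouse of its own, the transgene was introduced into FVB mice, and age and reproductive stage are not given in the labels. The wild-type glands carry neither transgene, so the transgenes and tumor formation cannot be told apart. The labels name 2 sequencing sites without saying which libraries each one made, and the study's methods name 1 of them, the UNMC core facility, so no site could be entered as a batch. Values are normalized cpm, that is reads scaled by an effective library size.

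The tumor libraries held 6176269 to 16835397 reads and the gland libraries 11672487 to 23889042, so that 3 reads corresponded to at most 0.683 normalized cpm. Tsg101 itself was listed at 49.9 to 101.3 in tumors and 45.6 to 61.0 in glands and was not called (log2 fold change 0.30, limma adjusted p = 0.296). It lay above all glands in 6 of the 10 tumors. By immunoblot the study found more exogenous TSG101 protein in most tumors than in normal glands of double transgenic mice, which these RNA values do not measure. Gland 3 stood apart from glands 1 and 2, with 4.35% of its reads on the ribosomal precursor Rn45s against 0.296% and 0.324%, and a summed level of 10 adipocyte markers of 11578 against 4288 and 4711. Tumor 9 had 27.4% of its reads on Rn45s, the highest share of the 13 libraries. Skeletal muscle markers summed to 2069 in tumor 4 and 384 in tumor 10 and to at most 24.9 in the other libraries, and 9 lymphocyte markers summed to 21.8 in gland 2 against 529 and 502 in glands 1 and 3. The 12 luminal epithelial markers summed to 1943 to 3275 in tumors and 1788 to 3903 in glands, and 8 squamous markers to 310 to 2362 in tumors and 6.47 to 21.3 in glands.

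A gene was called where limma gave an adjusted p under 0.05 and a change of more than 2-fold across all 11795 genes tested. The tumors differed from the glands in both ligands. Igf2 and Igfbp3 rose, Igf1, Igfbp2, Igfbp4 and Igfbp6 fell, and Igf1r, Igf2r, Igfbp5 and Igfbp7 were not called. Thus 2 of the 10 genes were called higher, beside 10.2% of all genes tested, and 4 were called lower, beside 6.99%. The count of 4 became 2 without gland 1, without gland 2 or without the tumors of mouse 51386, and 3 with tumors of the same mouse treated as correlated. Together 6 of 10 were called, beside 17.2% of all genes in either direction. In 2 genes every tumor lay above every gland (10.7% of all genes) and in 3, Igf1, Igfbp4 and Igfbp6, every tumor lay below every gland (8.53% of all genes). Of all calls, 59.3% were higher, but 29.1% when each library was scaled to its luminal and basal epithelial genes, which shifted the median over all genes from 0.01 to -0.39 (log2). Without the filter, which also removes genes that are high in the 3 glands only, 51% of calls were higher, and 53.5% where a gene had to exceed 5 in at least 3 libraries.

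**Figure D1:**
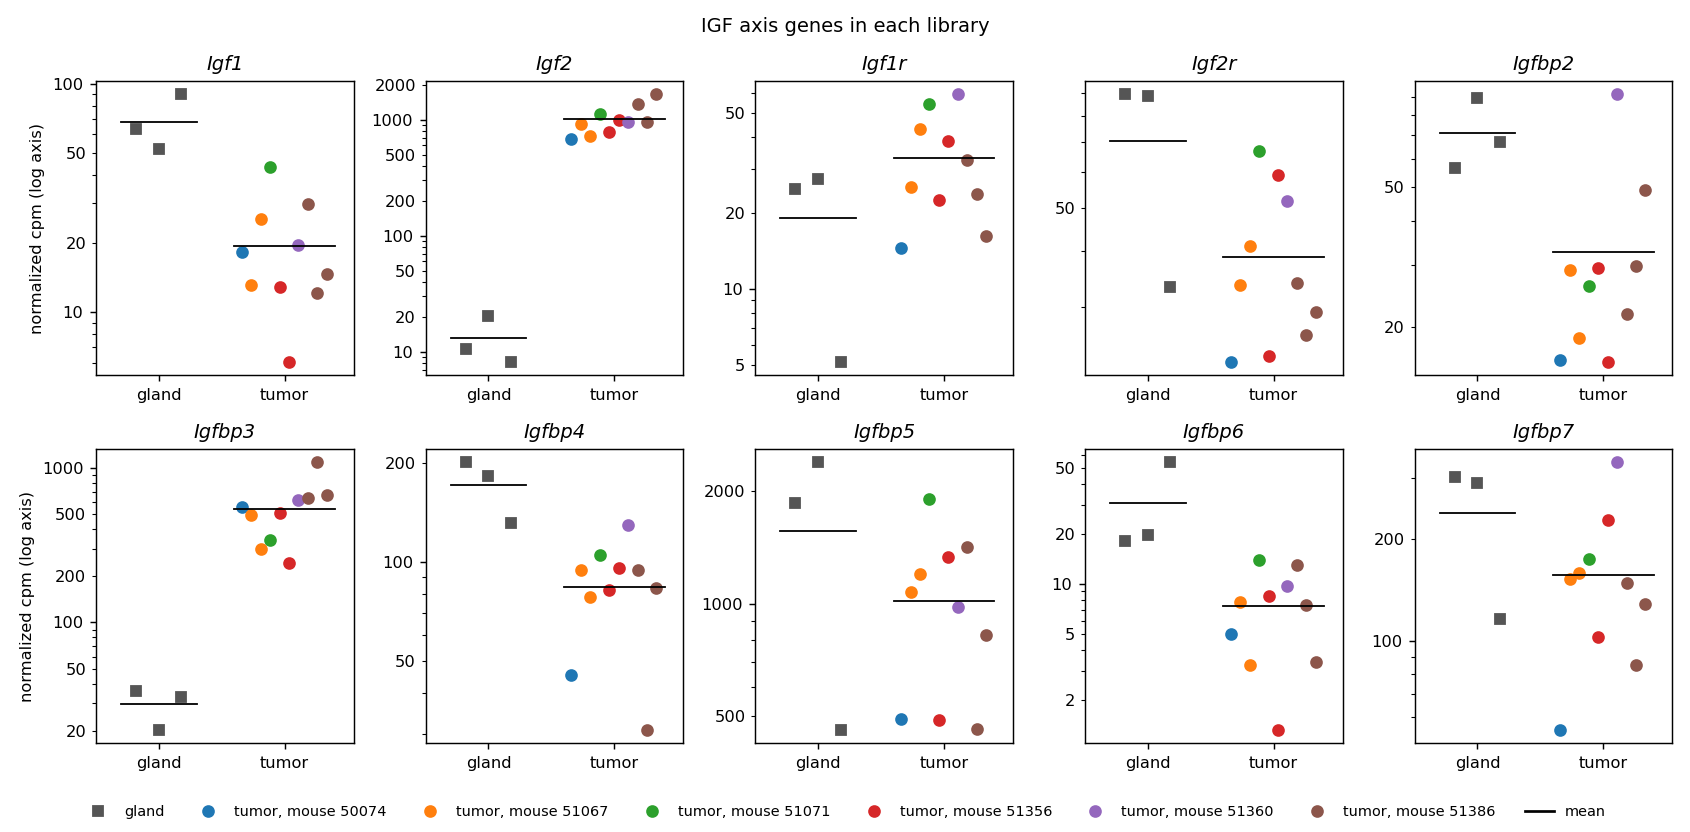
Normalized cpm of the 10 IGF axis genes on log axes, with 1 panel per gene, a square per gland, a circle per tumor colored by mouse and a line at each group mean. Igf2 and Igfbp3 show no overlap, with all 10 tumors above the 3 glands, while the tumors of Igf1, Igfbp4 and Igfbp6 lie below them and those of Igfbp5 spread over the same range as the glands.

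Igf2 lies on the minus strand of chromosome 7, from 142650768 to 142666816 (GRCm38.p6, RefSeq gene 16002), and encodes the fetal IGF ligand, which is expressed from the paternal allele. It was measured at 10.5, 20.4 and 8.17 normalized cpm in glands 1, 2 and 3. In the tumors the lowest value was 678 in tumor 1, the median 951 and the highest 1647 in tumor 10. The lowest tumor thus lay far above the highest gland, and the group means were 1013 ± 299 (SD, n = 10) and 13.03 ± 6.52 (SD, n = 3), a 77.7-fold difference. On the scale of log2(normalized cpm + 1) the change was 6.22 (SE 0.289, 95% interval 5.60 to 6.84, limma adjusted p = 5.48e-09). By log2 fold change Igf2 took place 20 of the 11795 genes tested. Leaving out any 1 library kept the change between 5.96 and 6.58.

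The rise was seen in tumors of all 6 mice. Mean Igf2 per mouse ran from 678 in mouse 50074 to 1323 in mouse 51386, a 1.95-fold span, and tumors of the same mouse differed by 1.25 to 1.72-fold. Of the 10 genes, Igf2 had the narrowest span between mouse means. The antisense gene Igf2os overlaps 98 exon bases of Igf2, and no source used here says whether reads were counted by strand. A further annotated gene, Gm49394, shares 3596 exon bases with Igf2 on the same strand and has no row in the table, and its reads cannot be told apart from those of Igf2 here.

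Igf2 has 4 annotated start sites in RefSeq (GRCm38.p6), and the gene counts do not say which of them was used. Shown are the 250 bases before the 2 starts that hold a GC box, the binding motif of the SP1 family (GGGCGG on either strand, in capitals), because Igf2 had the highest fold change of the axis. Sequences run 5′ to 3′ on the minus strand and end at the base before the start.
Igf2, before the start, chr7:142658805-142659054: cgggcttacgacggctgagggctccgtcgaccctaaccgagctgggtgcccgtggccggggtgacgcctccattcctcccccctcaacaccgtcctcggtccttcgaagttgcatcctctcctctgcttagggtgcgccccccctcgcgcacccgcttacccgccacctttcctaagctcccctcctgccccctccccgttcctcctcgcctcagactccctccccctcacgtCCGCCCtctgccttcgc
Igf2, before the start, chr7:142657497-142657746: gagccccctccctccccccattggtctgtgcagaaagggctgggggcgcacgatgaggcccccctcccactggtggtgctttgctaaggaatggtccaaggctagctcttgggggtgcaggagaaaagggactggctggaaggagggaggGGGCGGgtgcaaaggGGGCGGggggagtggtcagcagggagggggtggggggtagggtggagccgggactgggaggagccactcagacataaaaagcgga
The first stretch holds 1 GC box and the second 2, and the other 2 Igf2 starts hold none. At least 1 such motif is found in 32.7% of all 32851 promoter windows of this length.

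H19 and Plag1 are tied to Igf2 by position and by regulation. H19 is a maternally expressed noncoding RNA that lies 72621 bases from Igf2 on chromosome 7 and shares its imprinting control region and enhancers, and PLAG1 is a zinc finger transcription factor known to activate IGF2. H19 was measured at 24.3, 27.4 and 8.41 normalized cpm in glands 1, 2 and 3, and in tumors at 925 (tumor 9) to 4279 (tumor 4), with a median of 1806. Plag1 was measured at 1.03, 0.258 and 0.853 in the glands and at 38.5 (tumor 2) to 109 (tumor 8) in tumors, with a median of 60.3. Both rose, with log2 fold changes of 6.68 (SE 0.473, limma adjusted p = 1.82e-07) for H19 and 5.29 (SE 0.284, limma adjusted p = 1.39e-08) for Plag1, and took places 15 and 45 of all genes tested. The value of Plag1 depends on the pseudocount of 1, since its glands lay near it. It was 6.48 with a pseudocount of 0.1 and 6.56 with edgeR, and the ratio of group means was 95.5-fold. All 10 tumors lay above all 3 glands for both genes. Plag1 lay under the filter limit of 5 in all 3 glands, so it was among the genes tested only through its tumor values. The tumors highest in the 3 genes were not the same, being tumor 10 for Igf2, tumor 4 for H19 and tumor 8 for Plag1. The core GGGGC or GAGGC followed after 6 to 8 bases by GGG, a strict form of the motif known for PLAG1 sites, was searched on both strands. It was found in 0 of the 4 Igf2 stretches of 250 bases and in 19.9% of all promoter windows of this length. Among the 10 members, 5 had a match before at least 1 start, namely Igfbp2, Igfbp4, Igfbp7, Igf1r and Igf2r. Looser forms of the motif and bases farther from the starts were not searched, and binding of PLAG1 at Igf2 was not tested. Among the remaining genes of the list, the RNA-binding Igf2bp2 and Igf2bp3 and the imprinted or growth-related Plagl1 and Hmga2 were left out by the filter and not called without it, and Igf2bp1 is not in the table.

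**Figure D2:**
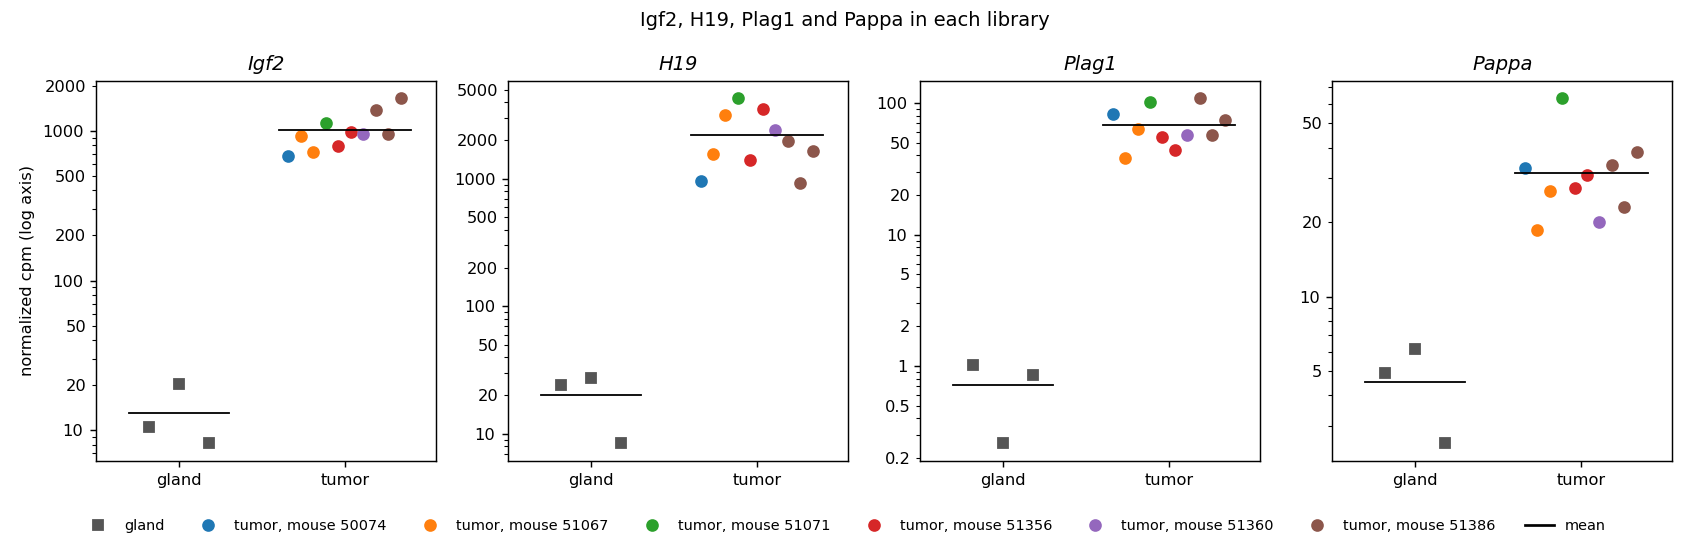
Normalized cpm of Igf2, H19, Plag1 and Pappa on log axes, with a square per gland, a circle per tumor colored by mouse and a line at each group mean. In all 4 genes the 10 tumors lie above the 3 glands, and the highest tumor is number 10 for Igf2, 4 for H19 and Pappa and 8 for Plag1.

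Igf1, on the plus strand of chromosome 10 from 87858265 to 87937047, encodes the ligand that growth hormone induces. Its level was 63.3, 51.9 and 89.8 normalized cpm in glands 1, 2 and 3. In the tumors it was lowest in tumor 6 (6.04), had a median of 16.5 and was highest in tumor 4 (43.0). All tumors thus lay below all glands, with means of 19.5 ± 10.8 (SD, n = 10) and 68.3 ± 19.5 (SD, n = 3), and glands were 3.501-fold higher. The log2 fold change was -1.89 (SE 0.413, 95% interval -2.77 to -1.01, limma adjusted p = 0.00314), and it stayed between -2.07 and -1.68 when any 1 library was left out. Igf1 is also made by stromal cells, and in bulk tissue fewer cells of a type and less RNA per cell cannot be told apart. Of 9 fibroblast markers tested, 4 were called lower and 1 higher, and the summed level of the list was 420 to 1230 in tumors and 3946 to 4470 in glands. Adipocyte markers summed to 95.8 to 529 in tumors and 4288 to 11578 in glands, and all 4 tested were called lower. Macrophage markers went the other way, summing to 384 to 752 in tumors and 337 to 358 in glands. Of the 8 tested, 1 was called higher and 0 lower. No marker of these lists was at the floor of 3 reads in all tumors. The part of these cells in the fall of Igf1 was not tested, and scaling each library to its epithelial genes gave a log2 fold change of -2.30 (limma adjusted p = 0.00252).

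Per kilobase of exon, which allows levels of different genes to be compared, the ligands changed places. Igf1 exceeded Igf2 in each gland, by 1.47 to 6.36-fold. In the tumors Igf2 exceeded Igf1 by 45.2-fold in the lowest and 281-fold in the highest, with a median of 94.3-fold.

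Neither receptor was called. Igf1r, on chromosome 7 from 67952257 to 68233668 on the plus strand, was measured at 24.9, 27.3 and 5.12 normalized cpm in glands 1, 2 and 3 and at 14.5 to 59.0 in tumors, with a median of 28.9. Only gland 3 lay below all tumors. Its log2 fold change of 0.90 (SE 0.474, 95% interval -0.11 to 1.92, limma adjusted p = 0.179) rested on this gland, since it was 0.19 (limma adjusted p = 0.755) without it. Igf2r, on chromosome 17 from 12682406 to 12769706 on the minus strand, was measured at 89.4, 88.7 and 33.3 in the glands and at 22.6 to 66.7 in tumors, with a median of 33.7. All tumors lay below glands 1 and 2, whereas gland 3 lay in the middle of the tumors. Its log2 fold change was -0.81 (SE 0.359, limma adjusted p = 0.11), and it became -1.28 (limma adjusted p = 0.0157), past the threshold, without gland 3, and -1.22 (limma adjusted p = 0.006) when libraries were scaled to epithelial genes.

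Both receptors were lowest among the glands in gland 3. Per kilobase, Igf1r stood at 0.0853 to 0.171 of Igf2r in the 3 glands and at 0.307 to 0.634 in the 10 tumors, with a median of 0.477. The 2 ranges did not overlap, and this difference was not tested. Insr, the insulin receptor, which can bind IGF2, was listed at 32.8 to 54.8 in tumors and 34.6 to 60.8 in glands (log2 fold change -0.08, limma adjusted p = 0.798).

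Of the 6 binding proteins, 1 rose (10.2% of all genes tested were called higher), 3 fell (6.99% lower) and 2 were not called. Without gland 1 or gland 2 only 1 binding protein, Igfbp6, was called lower. Igfbp3, the main carrier of IGFs in serum, lies on the minus strand of chromosome 11 from 7206086 to 7215498. It was measured at 36.3, 20.2 and 32.9 normalized cpm in glands 1, 2 and 3. In tumors the lowest value was 242 in tumor 6, the median 531 and the highest 1081 in tumor 9. The groups did not overlap, and the means of 544 ± 239 (SD, n = 10) and 29.8 ± 8.47 (SD, n = 3) differed by 18.2-fold. The log2 fold change was 4.06 (SE 0.366, 95% interval 3.279 to 4.85, limma adjusted p = 1.84e-06), and it was between 3.81 and 4.22 without any 1 library. Mouse means ran from 343 in mouse 51071 to 795 in mouse 51386, a 2.32-fold span. Tumor 9, the library with the most Rn45s reads, was the highest, and the part of Rn45s in its value was not tested.

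The stretch of 250 bases before the start listed for Igfbp3 in the promoter table, which lies inside the gene span given above rather than at its end, is shown because Igfbp3 was the only binding protein that rose, with CG pairs in capitals (GRCm38.p6, RefSeq, 5′ to 3′ on the minus strand).
Igfbp3, before the start, chr11:7213924-7214173: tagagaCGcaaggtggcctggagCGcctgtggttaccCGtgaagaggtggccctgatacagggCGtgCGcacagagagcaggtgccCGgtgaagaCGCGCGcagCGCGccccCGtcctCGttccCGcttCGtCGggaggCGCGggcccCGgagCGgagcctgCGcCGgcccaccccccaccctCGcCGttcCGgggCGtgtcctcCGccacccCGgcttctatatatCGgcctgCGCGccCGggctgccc
It holds 32 CG pairs and no GC box. At least as many CG pairs are found in 4.58% of all promoter windows of this length, whose median is 6.

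Igfbp6, which binds IGF2 in preference to IGF1, is on the plus strand of chromosome 15 from 102144186 to 102149512. It was listed at 18.1, 19.8 and 53.9 in glands 1, 2 and 3 and at 1.32 (tumor 6) to 13.9 (tumor 4) in tumors, with a median of 7.65. All tumors lay below all glands. The log2 fold change was -1.94 (SE 0.502, 95% interval -3.02 to -0.87, limma adjusted p = 0.00951). Without gland 3 the change was -1.45 and no longer past the threshold (limma adjusted p = 0.0564). Gland 3 also had the highest adipocyte marker sum, 11578 against 4288 and 4711 in glands 1 and 2. Fibroblast markers summed to 420 to 1230 in tumors and 3946 to 4470 in glands, and the part of these cells in Igfbp6 was not tested. Tumors of mouse 51356 differed by 6.38-fold in Igfbp6, the widest gap between tumors of the same mouse among the 10 genes.

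Igfbp4, an inhibitory binding protein that PAPP-A cleaves, is on the plus strand of chromosome 11 from 99040005 to 99052655. Its values were 201, 183 and 131 in glands 1, 2 and 3, and 31.0 (tumor 9) to 130 (tumor 7) in tumors, with a median of 89.0. The highest tumor lay just below the lowest gland. The means of 84.0 ± 28.4 (SD, n = 10) and 172 ± 36.0 (SD, n = 3) differed by 2.04-fold, and the log2 fold change was -1.09 (SE 0.34, limma adjusted p = 0.026). This call lay close to both thresholds, and it was lost when tumors of the same mouse were treated as correlated (limma-voom log2 fold change -1.06, adjusted p = 0.0538). Without tumor 9 the change was -0.95, under 2-fold, and without gland 1 or gland 2 the limma adjusted p was 0.128 or 0.0967.

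Igfbp2, on the plus strand of chromosome 1 from 72824480 to 72852474, binds IGF2 strongly and also integrins. It was measured at 56.7, 89.1 and 67.0 in glands 1, 2 and 3, and at 16.0 to 91.4 in tumors, with a median of 27.7. Tumors 1 to 6 and 8 to 10 lay below all glands, and tumor 7 lay above all of them. The log2 fold change was -1.27 (SE 0.41, limma adjusted p = 0.0315). The call was lost without gland 1, 2 or 3 (limma adjusted p = 0.0639, 0.144 and 0.0559) and with edgeR (adjusted p = 0.0659) or DESeq2 (adjusted p = 0.0559), and with 1 mean value per mouse (limma adjusted p = 0.0744). Tumor 7 also held the highest summed squamous level, 2362 against at most 920 in the other tumors, and the highest basal level, 4309 against at most 2456.

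Igfbp5, the neighbor of Igfbp2 at a distance of 5590 bases on chromosome 1 (72858065 to 72874865, minus strand), was abundant in both tissues. It was measured at 1859, 2388 and 460 in glands 1, 2 and 3, and at 464 (tumor 9) to 1909 (tumor 4) in tumors, with a median of 1028. Gland 3 was the lowest of all 13 libraries, glands 1 and 2 were near or above the highest tumor, and no tumor lay outside the range of the glands. The log2 fold change of -0.47 (SE 0.515, 95% interval -1.57 to 0.63, limma adjusted p = 0.545) became -1.20 (limma adjusted p = 0.0729) without gland 3 and -0.01 (limma adjusted p = 0.994) without gland 2.

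Igfbp7, which binds IGFs weakly and is known from vessels and extracellular matrix, is on the minus strand of chromosome 5 from 77349240 to 77408045. Its values were 303, 292 and 116 in the glands and 55.0 (tumor 1) to 334 (tumor 7) in tumors, with a median of 150. Gland 3 was again the lowest gland and lay inside the tumor range. The log2 fold change was -0.63 (SE 0.435, limma adjusted p = 0.316), and -1.08 (limma adjusted p = 0.0898) without gland 3. Endothelial markers summed to 95.3 to 177 in tumors and 408 to 783 in glands, with 9 of 10 called lower and no marker at the floor in all tumors, and their part in Igfbp4 and Igfbp7 was not tested. Igfbp7 shares 85 exon bases with Polr2b on the opposite strand.

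**Figure D3:**
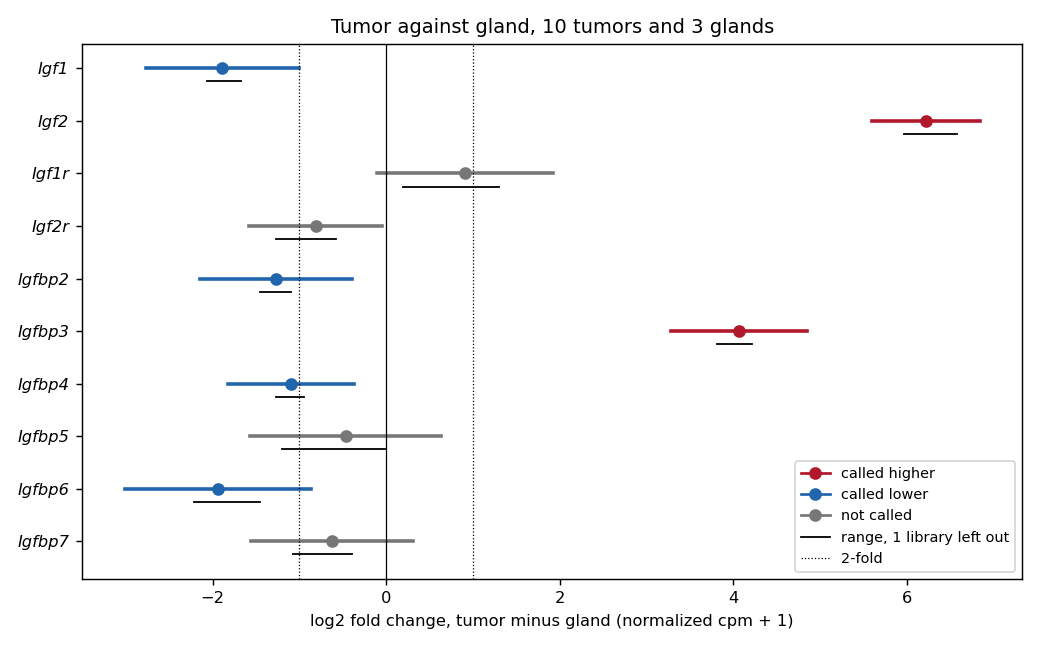
Log2 fold changes of the 10 genes, tumor minus gland, with a circle for the estimate, a colored bar for its 95% interval (limma, not adjusted for multiple tests) and a thin black bar for its range when 1 library at a time was left out. Igf2 at 6.22 and Igfbp3 at 4.06 stand clear of the dotted 2-fold lines, and the wide black bars of Igf1r and Igfbp5 run from their value without gland 3 (0.19 and -1.20) to that without gland 2 (1.30 and -0.01).

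The binding proteins were next compared by their sum and by the share of each, per library. Per kilobase of exon, the 6 genes together reached 327 to 724 normalized cpm in tumors, with a median of 512, and 298 to 753 in glands. The lowest gland was gland 3, and glands 1 and 2 were at 664 and 753. Igfbp3 made up 0.859% to 3.53% of this sum in glands and 15.0% to 66.02% in tumors, with a tumor median of 32.2%. Igfbp5 took 25.7% to 52.8% in glands and 14.8% to 51.1% in tumors, and Igfbp7 took 32.0% to 37.7% and 13.5% to 38.2%. Igfbp4 took 5.50% to 9.99% in glands and 1.34% to 5.03% in tumors, without overlap. Igfbp6 took 2.36% to 16.3% in glands, where the highest share was that of gland 3, and 0.229% to 2.04% in tumors. These shares are a description, since a share of 1 gene lowers those of the others.

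**Figure D4:**
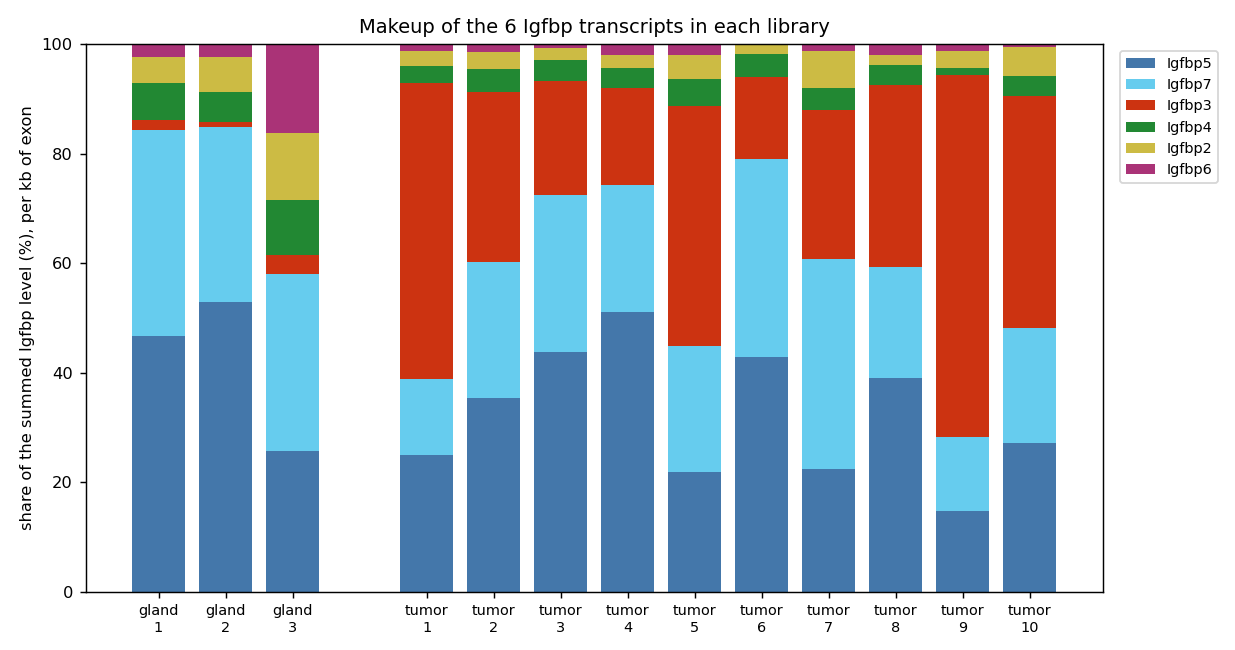
Stacked bars of the share, in percent, that each of the 6 binding proteins took of their summed level per kilobase of exon, for each gland and each tumor. The red Igfbp3 segment is at most 3.53% in the glands and reaches from 15.0% in tumor 6 to 66.02% in tumor 9, and gland 3 differs from the other glands in its larger Igfbp6, Igfbp2 and Igfbp4 segments.

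Ordered by mean level per kilobase, the tumors had Igf2 (177 ± 52.2, SD, n = 10), Igfbp3 (174 ± 76.4), Igfbp5 (170 ± 78.4) and Igfbp7 (130 ± 65.2) at the top. Igf2 exceeded Igfbp3 in 6 of 10 tumors and Igfbp3 exceeded Igfbp5 in 5 of 10, while Igfbp5 exceeded Igfbp7 in 8 of 10. Igfbp7 exceeded the next gene, Igfbp4 (19.03 ± 6.42), in 10 of 10 tumors. Igfbp2, Igfbp6, Igf2r, Igf1 and Igf1r followed, from 17.7 ± 12.3 down to 1.96 ± 0.918, and Igf1 and Igf1r at the bottom exceeded each other in 5 tumors each. In glands the order opened with Igfbp5 (261 ± 166, SD, n = 3), Igfbp7 (196 ± 86.6) and Igfbp4 (38.9 ± 8.16). Igfbp5 exceeded Igfbp7 in 2 of 3 glands, and Igfbp4 exceeded the next gene, Igfbp2 (38.4 ± 8.97), in 1 of 3. In the glands Igfbp3 was at place 6 and Igf2 at place 9. Igf1r was last in both tissues.

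A list of genes that release or store IGFs came next along the axis. Of its 8 genes, 5 passed the filter, 1 was called higher (10.2% of all genes tested) and 3 lower (6.99% of all), with a median log2 fold change of -1.25 against 0.01 over all genes tested. Pappa, the protease that cleaves IGFBP4 and other binding proteins, was at 4.92, 6.14 and 2.56 in glands 1, 2 and 3 and at 18.7 (tumor 2) to 63.2 (tumor 4) in tumors. All tumors exceeded all glands, and the log2 fold change was 2.53 (SE 0.306, limma adjusted p = 2.71e-05). Glands 1 and 3 lay under the filter limit of 5, so Pappa passed the filter through its tumors. Pappa2, a related protease, was left out by the filter. It was at 0.214, 0.258 and 0 in the glands and at 1.42 to 15.4 in tumors, and was called higher without the filter (limma adjusted p = 0.000414). Adam12, a metalloprotease that can cut IGFBP3 and IGFBP5, was also left out, at 9.87 to 20.3 in glands and 1.02 to 7.24 in tumors, and was called lower without the filter (limma adjusted p = 0.00055). Adam28 was left out and not called without the filter. Igfals, the subunit that joins IGF and IGFBP3 or IGFBP5 in the ternary serum complex, was at 204, 220 and 141 in glands and at 7.13 (tumor 7) to 76.9 (tumor 6) in tumors, again without overlap, with a log2 fold change of -2.84 (SE 0.522, limma adjusted p = 0.000888). Stc1, whose product inhibits PAPP-A, fell by 1.25 on the log2 scale (limma adjusted p = 0.00777), but lost its call without gland 1 or gland 2 (0.0505 and 0.0558), and the related Stc2 had -0.30 (limma adjusted p = 0.585). Htra1, a serine protease that can cut IGFBP5, fell by 1.36 (limma adjusted p = 0.0118) and, like Igfbp2, was highest in tumor 7, at 99.0 against 18.8 to 45.3 in the other tumors. Its glands were at 91.5, 78.7 and 91.4, and its call was lost without gland 1 (limma adjusted p = 0.055).

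Igf1 transcription depends on growth hormone, whose receptor signals through JAK2 and STAT5, as does that of prolactin. Among 7 genes of this input, 4 were called lower and 0 higher (6.99% and 10.2% of all genes tested), with a median log2 fold change of -1.03. Ghr, the growth hormone receptor, was at 142, 148 and 322 in glands 1, 2 and 3 and at 44.7 to 97.8 in tumors, and fell by 1.34 (limma adjusted p = 0.0017). Without gland 3 its change was -0.96, under 2-fold. The STAT5 targets Cish and Socs2, feedback inhibitors of the pathway, fell by 1.63 and 1.12 (limma adjusted p = 0.00159 and 0.00156), and Socs2 was below all glands in all 10 tumors. Stat5a, the transcription factor, had a log2 fold change of -1.03 at the edge of both thresholds (limma adjusted p = 0.0468), its call was lost in 16 of 28 alternatives, and its limma adjusted p ran from 0.0276 to 0.218 when each of the libraries was left out. Stat5b had -0.99 (limma adjusted p = 0.00532), which passed in p but was just under 2-fold, and Prlr (-0.70) and Jak2 (-0.19) were not called. Milk protein genes, which STAT5 drives, took 16.3% to 21.5% of the gland reads and 0.104% to 7.38% of the tumor reads. In this list too the part of adipocytes and of milk-producing cells was not tested.

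Of the 28 adaptor, PI3K and AKT genes tested, 23 were not called and 5 were called, 1 higher and 4 lower, beside 17.2% of all genes called in either direction. Pik3r1, which encodes regulatory subunits of PI3K, was the only one called higher, at 279, 308 and 122 in glands 1, 2 and 3 and at 344 (tumor 7) to 624 (tumor 8) in tumors (log2 fold change 1.16, SE 0.259, limma adjusted p = 0.00367). Without gland 3 its change was 0.74, under 2-fold, and with epithelial scaling it was 0.75. Grb10, an imprinted adaptor that inhibits IGF1R and insulin receptor signaling, fell by 1.20 (limma adjusted p = 0.000393), and Pik3r3, a further regulatory subunit, by 1.31 (limma adjusted p = 0.000373). Pik3cd, the catalytic subunit of leukocytes, was at 89.6, 12.2 and 71.1 in glands and 9.56 to 19.2 in tumors (log2 fold change -1.62, limma adjusted p = 0.00951). Gland 2, the gland with a summed lymphocyte marker level of 21.8, lay within the tumors for Pik3cd. Its call was lost without gland 1 or gland 3 (limma adjusted p = 0.102 and 0.0523), whereas without gland 2 the change was -2.50 (limma adjusted p = 1.07e-05). Without the filter 8 of 9 lymphocyte markers were called lower, and the part of lymphocytes in the fall of Pik3cd was not tested. Foxo6, a forkhead transcription factor, was left out by the filter, at 0.122 to 0.856 in glands and 0.91 to 6.18 in tumors, and was called higher without it (limma adjusted p = 0.0141), and Irs4 is not in the table. The list's median log2 fold change was -0.27.

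Of the 6 IGFBP-related genes in the table, 4 passed the filter and were called higher (10.2% of all genes tested). The filter favors genes that are high in the 10 tumors, and Esm1 in every gland and Ccn5 in glands 1 and 2 lay under its limit of 5. Ccn1, Ccn2 and Ccn5 encode matricellular proteins with an IGFBP-like domain, and Esm1 encodes a proteoglycan with such a domain. Ccn2 was at 19.4, 49.6 and 31.0 in glands 1, 2 and 3 and at 35.2 (tumor 6) to 752 (tumor 9) in tumors, with a median of 118, and its log2 fold change was 2.28 (SE 0.642, limma adjusted p = 0.0156). Tumor 6 lay inside the range of the glands. Ccn5 rose by 2.13 (limma adjusted p = 0.00977) and Ccn1 by 1.19 (limma adjusted p = 0.00603), and both were also lowest in tumor 6 and highest in tumor 9. Without gland 1 the calls of Ccn2 and Ccn5 were lost (limma adjusted p = 0.0981 and 0.0602), without gland 2 that of Ccn5 (0.0774), and with epithelial scaling those of Ccn1, Ccn2 and Ccn5 (0.131, 0.0621 and 0.0809). Esm1 was at 2.32 to 3.25 in glands and 6.67 to 28.1 in tumors, without overlap (log2 fold change 2.12, limma adjusted p = 0.000201). Igfbp1, Igfbpl1 and Ccn6 are not in the table, and Ccn3 and Ccn4 were left out by the filter and not called without it.

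**Figure D5:**
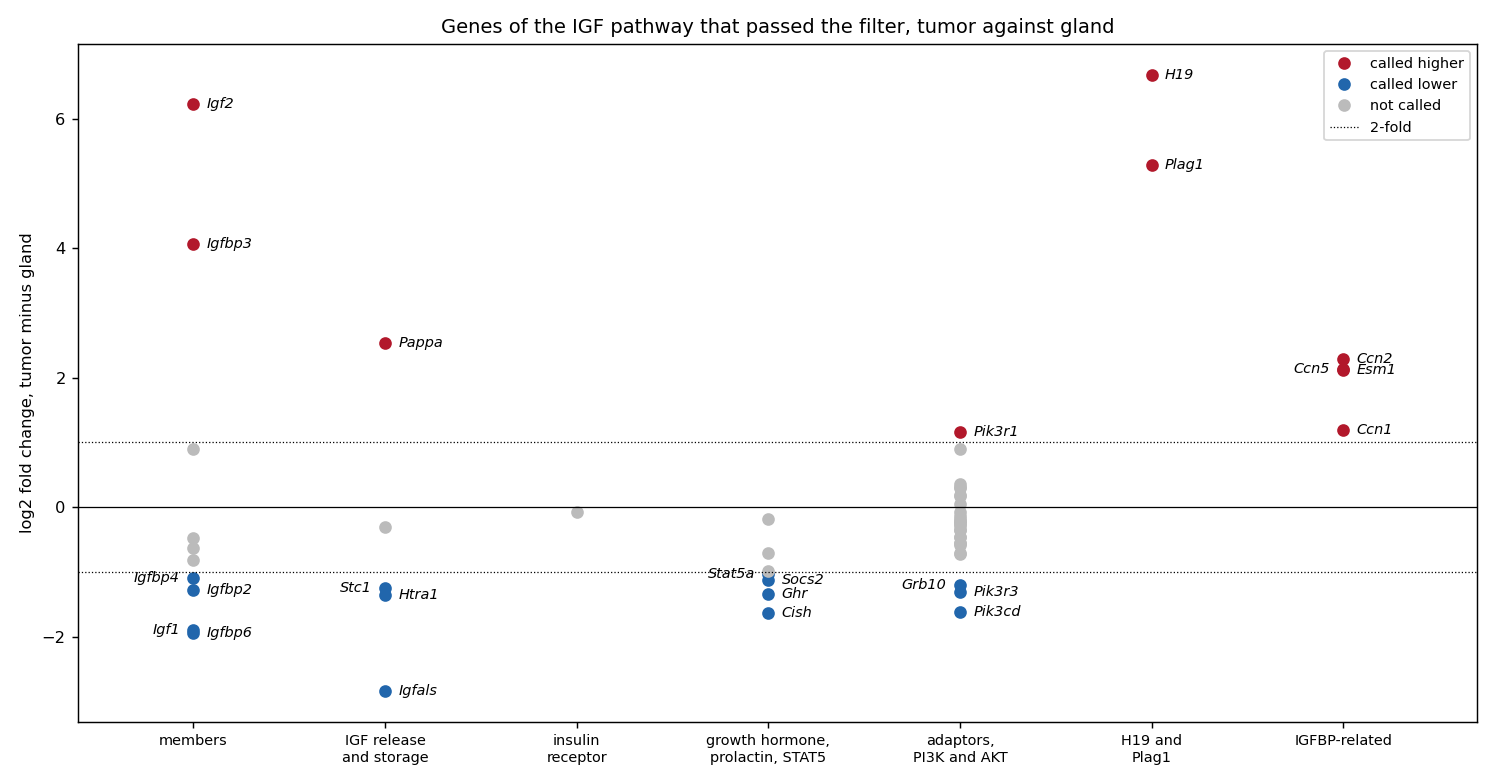
Log2 fold changes, tumor minus gland, of the 10 IGF axis genes and of the genes of 6 pathway lists that passed the filter and are reported here, with a circle per gene, red for called higher, blue for called lower and gray for not called. H19, Igf2, Plag1 and Igfbp3 lie above 4, Igfals lies lowest at -2.84, and most adaptor, PI3K and AKT genes lie between the dotted 2-fold lines.

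Across the 10 tumors the genes whose log2 values were most like those of each member were listed by Pearson's r, as a description over tumors of only 6 mice. For Igf2 they were Tbc1d31, Mylk and Plpp1 (r = 0.91, 0.89 and 0.87). For Igf1 they were Tspoap1, Rictor and Cc2d2a (0.96, 0.93 and 0.90), and for Igfbp3 Ecrg4, Fam118a and Sms (0.97, 0.97 and 0.96). Igfbp6 had Retnla, Clec3b and Efemp1 (0.95, 0.95 and 0.94) and Igfbp4 had Plvap, an endothelial gene, with Rtl8b and Dnmbp (0.96, 0.95 and 0.95). The closest genes were Pdzd2, Soga1 and Golga4 for Igf1r (0.99, 0.98 and 0.98) and Lamb3, Lrp6 and Disp1 for Igf2r (0.97, 0.97 and 0.97). Igfbp2 had Nde1, Fam89a and Homer2 (0.95, 0.93 and 0.91), Igfbp5 had Iqgap3, Dicer1 and Tgfbr2 (0.98, 0.98 and 0.98) and Igfbp7 had Tiam1, Tubb6 and Sik3 (0.98, 0.97 and 0.97). The points share mice and depth, and no member of the axis was among the 3 closest genes of another.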

How the data were processed

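Total RNA of flash-frozen tumors and glands was sequenced by the authors, who used Rsubread (alignment of read pairs to mm10), featureCounts (reads per gene) and edgeR (normalization and differential expression). The values deposited by the authors are a normalized signal, reads scaled by an effective library size (normalized cpm). In each library 100% of them were whole multiples of the value of 1 read (tolerance 0.1 reads), so reads were recovered. The planned test for normalized values was kept: limma 3.58.1 with trend (R 4.3.3) on log2(normalized cpm + 1), with condition as the only term over all 13 libraries. As in the study's methods, 3418 genes at 5 or less in the majority of libraries were left out. Calls needed a Benjamini-Hochberg adjusted p under 0.05 and a change of more than 2-fold. edgeR 4.0.16, DESeq2 1.42.0, other scalings, filters and left-out libraries were alternatives. P-values measure the spread between these libraries, several of which share a mouse. Floors of 3 reads and intervals cover counting or replicate error only. Exon lengths came from GENCODE M21, positions and promoter stretches from RefSeq GRCm38.p6. The script was tested on simulated data. The text names all 10 members, every called gene of 6 pathway lists (except 1 that is not reported here) and, for each member, the 3 tested genes most correlated over the tumors. Members and lists were chosen with earlier results of these data known.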

Additional observations from a re-analysis of the deposited data

Results flagged for a closer look

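A single tumor stood apart from the other 9 in 8 of 29 genes, by the gap to its nearest neighbor relative to the range of the 10 tumors (limit 0.466). The rule was applied to normalized cpm without logs. Its rate of about 1 in 20 groups flagged by chance holds for normally distributed values, so the 8 of 29 cannot be set against it. In the binding proteins these were Igfbp2 in tumor 7, at 91.4 normalized cpm against 48.9 in the next tumor, and Igfbp3 in tumor 9, at 1081 against 669. Tumor 7 was also apart in Htra1, at 99.0 against 45.3. Tumor 9 was apart in Ccn1 (62.4 against 40.9), Ccn2 (752 against 270.04) and Ccn5 (66.5 against 27.2), and it held 27.4% Rn45s reads, whose part in these values was not tested. Pappa stood out in tumor 4, at 63.2 against 38.5, the tumor with a skeletal muscle marker sum of 2069. Igfals stood out in tumor 6, at 76.9 against 42.7. Every one of these values was the highest of its gene among tumors. Without the tumor concerned, each of the 8 genes was still called.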

How the results depend on the processing

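Each gene was refitted under 28 alternatives, none of which reversed a direction. Igf1, Igf2, Igfbp3, Igf1r, Igfbp5 and Igfbp7 stayed on their side of the thresholds in all of them, with log2 fold changes of 5.83 to 6.58 for Igf2, 3.65 to 4.22 for Igfbp3 and -2.30 to -1.67 for Igf1. Igf2 and Igfbp3 were called higher in every alternative. The call was lost in 9 alternatives for Igfbp2, in 7 for Igfbp4 and in 2 for Igfbp6, and gained in 2 for Igf2r. Members called lower numbered 4, but 2 without the tumors of mouse 51386, and 2 to 4 when any 1 library was left out (2 without gland 1 or gland 2). Genes called in all were 2029, but 3141 with no filter, where more genes are tested, and 1661 to 2660 when 1 library was left out. Of the 19 pathway genes called, 5 kept their call in every alternative, namely Pappa, Igfals, H19, Plag1 and Esm1.

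The replicate numbers of the labels name different mice, and the deviations of same-numbered tumors and glands correlated at -0.58, 0.04 and -0.66, so the numbers do not pair the samples. With a replicate block, which leaves tumors 4 to 10 without a partner, 544 genes were called, among them Igf2 and Igfbp3 higher and 2 members, Igf1 and Igfbp2, lower. Igfbp4 (limma adjusted p = 0.2) and Igfbp6 (0.12) lost their calls and Igf2r stayed uncalled.

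With 3 glands, of which gland 3 differs in Rn45s and adipocyte levels, gland values limit the precision of every comparison here. Depth was not limiting for the members, whose lowest library value, 1.32 normalized cpm of Igfbp6 in tumor 6, lay above its floor of 0.283. Age and reproductive stage are not given in the labels, which also name a second sequencing site beside the UNMC facility of the methods without assigning libraries, so none of these was entered. Gene counts do not resolve start sites, alleles or the cell type of origin.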
